A study of Mus musculus with 16 samples.

Results

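Pressure overload was compared with a sham operation in mice that all received the kinase inhibitor THZ1, to ask which changes in ventricular gene expression followed aortic constriction while the drug was being given. The comparison took 8 of the 16 mouse heart libraries, 4 from TAC-THZ1 mice and 4 from Sham-THZ1 mice, and tested the 13331 of 22372 annotated genes whose normalized count reached 10 in at least 4 of the 16 libraries. TAC is transverse aortic constriction, in which a suture narrows the aortic arch between the brachiocephalic and the left carotid artery, and sham mice had the operation without the suture. Mice were C57BL/6J and 10 to 12 weeks old at the start. Both groups were injected intraperitoneally with 10 mg/kg THZ1 per dose, at 2 doses a day, from postoperative day 1 to day 60. The remaining 8 mice, 4 TAC-Veh and 4 Sham-Veh, received vehicle and serve here for comparison. Their libraries also entered the expression filter and the estimate of spread behind each gene's test. RNA came from a piece of the ventricles, so each library mixes cardiomyocytes with fibroblasts, vessel cells, blood and immune cells, and the drug reached all of them.

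A ventricle that pumps against raised pressure enlarges its cardiomyocytes and restarts part of its fetal gene program. The atrial and B-type natriuretic peptides, skeletal alpha-actin and beta myosin heavy chain rise, while the adult alpha myosin heavy chain, the calcium pump of the sarcoplasmic reticulum and the enzymes that burn fatty acids fall. Cardiac fibroblasts turn into matrix-secreting myofibroblasts that express periostin. THZ1 binds covalently to CDK7, CDK12 and CDK13, kinases that phosphorylate RNA polymerase II during transcription.

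The promoters of 4 genes that define the cardiomyocyte response are shown because all 4 genes rose with TAC under THZ1 and carry known binding motifs of cardiac transcription factors. Each line gives the 250 bases before the transcription start in GRCm38.p6, read from RefSeq on the strand of the gene. Capitals mark the searched motifs on either strand, which are CATTCC (the core of the MCAT element that TEAD factors bind), GATAA (GATA factors), the CArG box (serum response factor) and TATAAA (the TATA box).
Nppa (chr4:148000472-148000721, plus strand): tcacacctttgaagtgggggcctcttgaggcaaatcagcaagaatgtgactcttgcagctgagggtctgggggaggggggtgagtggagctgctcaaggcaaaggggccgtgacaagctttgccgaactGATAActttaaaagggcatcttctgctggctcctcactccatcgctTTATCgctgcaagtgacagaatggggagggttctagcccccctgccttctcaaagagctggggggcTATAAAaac
Nppb (chr4:147985650-147985899, plus strand): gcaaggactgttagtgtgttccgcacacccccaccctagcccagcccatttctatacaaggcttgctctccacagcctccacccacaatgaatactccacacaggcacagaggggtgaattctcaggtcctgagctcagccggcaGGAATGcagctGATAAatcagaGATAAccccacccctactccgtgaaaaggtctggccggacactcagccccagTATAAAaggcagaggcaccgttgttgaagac
Acta1 (chr8:123894776-123895025, minus strand): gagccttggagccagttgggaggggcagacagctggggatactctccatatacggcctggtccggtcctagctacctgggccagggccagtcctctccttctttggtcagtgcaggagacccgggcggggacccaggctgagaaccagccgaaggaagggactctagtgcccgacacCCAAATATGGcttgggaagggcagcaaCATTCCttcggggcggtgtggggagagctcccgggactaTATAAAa
Ankrd1 (chr19:36119845-36120094, minus strand): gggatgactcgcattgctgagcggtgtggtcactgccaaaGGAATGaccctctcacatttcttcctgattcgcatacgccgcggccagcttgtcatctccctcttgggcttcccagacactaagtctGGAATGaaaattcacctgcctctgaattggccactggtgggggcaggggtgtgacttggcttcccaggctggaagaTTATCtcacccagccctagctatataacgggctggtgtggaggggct

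The searched motifs did not overlap one another in these windows. The CATTCC core lay 105 bases before the start of Nppb, 46 before that of Acta1, and 210 and 123 before that of Ankrd1. GATAA lay 121 and 75 bases before the Nppa start, 94 and 83 before the Nppb start and 47 before the Ankrd1 start. The CArG box was found at 73 bases in Acta1 alone among the 4 windows. Among the genes called higher below, 112 had a window, and 32 of them (28.57%) held CATTCC, against 13.28% of the 9468 tested genes with a window. Of the 79 genes called lower with a window, 12 (15.19%) held it. TATAAA was in 24.11% of the higher genes, 12.66% of the lower genes and 8.196% of the tested genes. Over all 32851 windows, counted by window and not by gene, the shares were 12.64% for CATTCC, 22.58% for GATAA, 1.467% for the CArG box and 12.37% for TATAAA. These shares are descriptions of the sequence, and binding was not measured.

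A gene was called when limma's moderated test on log2(normalized count + 1) gave a Benjamini-Hochberg adjusted p under 0.05 and the mean differed by at least 1 on the log2 scale. By this rule 155 genes (1.16% of those tested) were higher and 115 (0.863%) were lower in TAC-THZ1 than in Sham-THZ1 hearts. On adjusted p alone 1514 genes (11.4%) rose and 1706 (12.8%) fell, which is 24.2% of the genes tested, and the median change over all genes was 0.0018 on the log2 scale. The 4 TAC-THZ1 values lay wholly above the 4 Sham-THZ1 values for 121 of the 155 higher genes and wholly below for 104 of the 115 lower genes, while 4448 of all tested genes (33.4%) showed no overlap in one direction or the other. Genes just inside the threshold were Hspa1l at 1.01, Nrn1 at 1.01 and Col4a2 at -1.01, and those just outside were Pkib at 0.999, Panx1 at 0.992 and Ano10 at -0.996 on the log2 scale.

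The libraries held 21.4 M to 32.7 M reads, and mitochondrial transcripts took 38.1% ± 1.08 of them with sham and 41.6% ± 3.45 with TAC (SD, n = 4 each; exact permutation test, two-sided p = 0.14). The first principal component of the 2000 most variable genes took 53.6% of the variance and placed the sham hearts between -12.8 and -22.6. The TAC-THZ1 hearts were spread from 31.5 and 30.4 (replicates 1 and 3) to 9.54 (replicate 4) and 0.715 (replicate 2). Neutrophil markers were highest in the same 2 TAC-THZ1 hearts, with 8387 and 3612 summed normalized counts in replicates 1 and 3, 993 in replicate 2 and 224 in replicate 4, against 88.1 to 579 in Sham-THZ1. Their part in the results was not tested, but without replicates 1 and 3, a choice made after seeing the data, 65 genes were called higher and 58 lower, of which 58 and 44 were also called with all libraries. Of 218 genes followed one by one, 122 did not pass the test without these 2 libraries, among them Pdk4, Ucp3, Atp2a2, Hadha, Scn4a, Aqp4, Gsta3, Postn and Itgb1bp3. Ventricular cardiomyocyte markers were high in all 8 libraries, summing to between 1355030 and 1668840 normalized counts.

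Of 17 tested genes of fetal reactivation and wall strain 9 rose, 1 fell and 7 did not pass the test, with a median change of 0.53 on the log2 scale. Nppa (ENSMUSG00000041616), the atrial natriuretic peptide gene at chr4:147374831-147376188 on the plus strand of NCBIM37 (mm9), had normalized counts of 3583, 2434, 3306 and 3039 in the 4 Sham-THZ1 hearts and 35178, 12865, 42633 and 19261 in the 4 TAC-THZ1 hearts. Each TAC heart stood above every sham heart by a wide margin, and the TAC hearts differed among themselves by more than the sham hearts did. The fold change was 8.07 (log2 change 3.01, SE 0.40, limma adjusted p = 0.000347).

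Nppb (ENSMUSG00000029019), which encodes B-type natriuretic peptide and lies beside Nppa at chr4:147359897-147361314, had 2668, 2314, 2403 and 2743 normalized counts with sham and 10630, 7065, 13234 and 11292 with TAC, a 4.07-fold rise (log2 2.03, SE 0.21, limma adjusted p = 5.6e-05). Ankrd1 (ENSMUSG00000024803, chr19:36186455-36194334, minus strand), the stretch-responsive cardiac ankyrin repeat protein, had 16750, 13417, 19931 and 17408 against 77414, 59189, 61210 and 98587, a 4.34-fold rise (log2 2.12, SE 0.19, limma adjusted p = 1.92e-05). In both genes every TAC heart stood far above every sham heart. Acta1 (ENSMUSG00000031972, chr8:126415669-126418651, minus strand), skeletal alpha-actin, had 4797, 4651, 4875 and 3925 against 35837, 25802, 36006 and 59180, an 8.24-fold rise (log2 3.04, SE 0.23) with an adjusted p of 4.46e-06 in limma. Here replicate 4 was the highest TAC heart, whereas Nppa was highest in replicate 3.

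The myosin heavy chains, which sit side by side on chromosome 14, moved in opposite directions. Myh7 (ENSMUSG00000053093, chr14:55589525-55613471, minus strand), the fetal beta chain, had 2278, 2379, 2291 and 2282 normalized counts with sham and 31818, 8845, 49784 and 14202 with TAC, and rose 9.15-fold (log2 3.19, SE 0.47, limma adjusted p = 0.000615). Myh6 (ENSMUSG00000040752, chr14:55560758-55585764, minus strand), the adult alpha chain, had 485692, 492080, 513460 and 516004 against 262747, 357361, 287475 and 307407, and fell 1.66-fold (log2 -0.73, SE 0.19, limma adjusted p = 0.0119). Neither gene's groups overlapped, although the fall of Myh6 did not pass with quantile normalization, with no filter on low values, or without TAC-THZ1 replicates 1 and 3. Expressed per kilobase of exon, Myh7 made up 0.349%, 0.360%, 0.332% and 0.329% of the 2 chains in the sham hearts and 8.29%, 1.81%, 11.4% and 3.33% in the TAC hearts. The mean share was 0.342% ± 0.0144 with sham and 6.22% ± 4.45 with TAC (SD, n = 4 each; exact permutation test, two-sided p = 0.0286, the smallest that 4 against 4 allows).

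The other risers of the list changed less. Xirp2, an actin-binding protein of the intercalated disc, had 12811, 12798, 13706 and 12528 normalized counts with sham and 23787, 24337, 25386 and 36582 with TAC (log2 1.06, SE 0.15, limma adjusted p = 0.000561). Rcan1, a feedback inhibitor and reporter of calcineurin, had 1591, 1542, 1541 and 1630 against 3131, 2032, 3868 and 2746 (log2 0.86, SE 0.16, limma adjusted p = 0.00208). Both genes separated the groups, with replicate 4 apart from the other TAC hearts for Xirp2 and replicate 2 closest to sham for Rcan1. Csrp3, a muscle LIM protein of the Z-disc, rose by 0.53 and Ankrd2, the skeletal relative of Ankrd1, by 1.68. Nes, the intermediate filament nestin, was the single member that fell, at -0.82. Xirp1 and Fhl2 stood at -0.02 and 0.04, and their groups overlapped. The 9 genes that rose were 9 again when any one of the 8 libraries was left out and without TAC-THZ1 replicates 1 and 3.

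**Figure D1:**
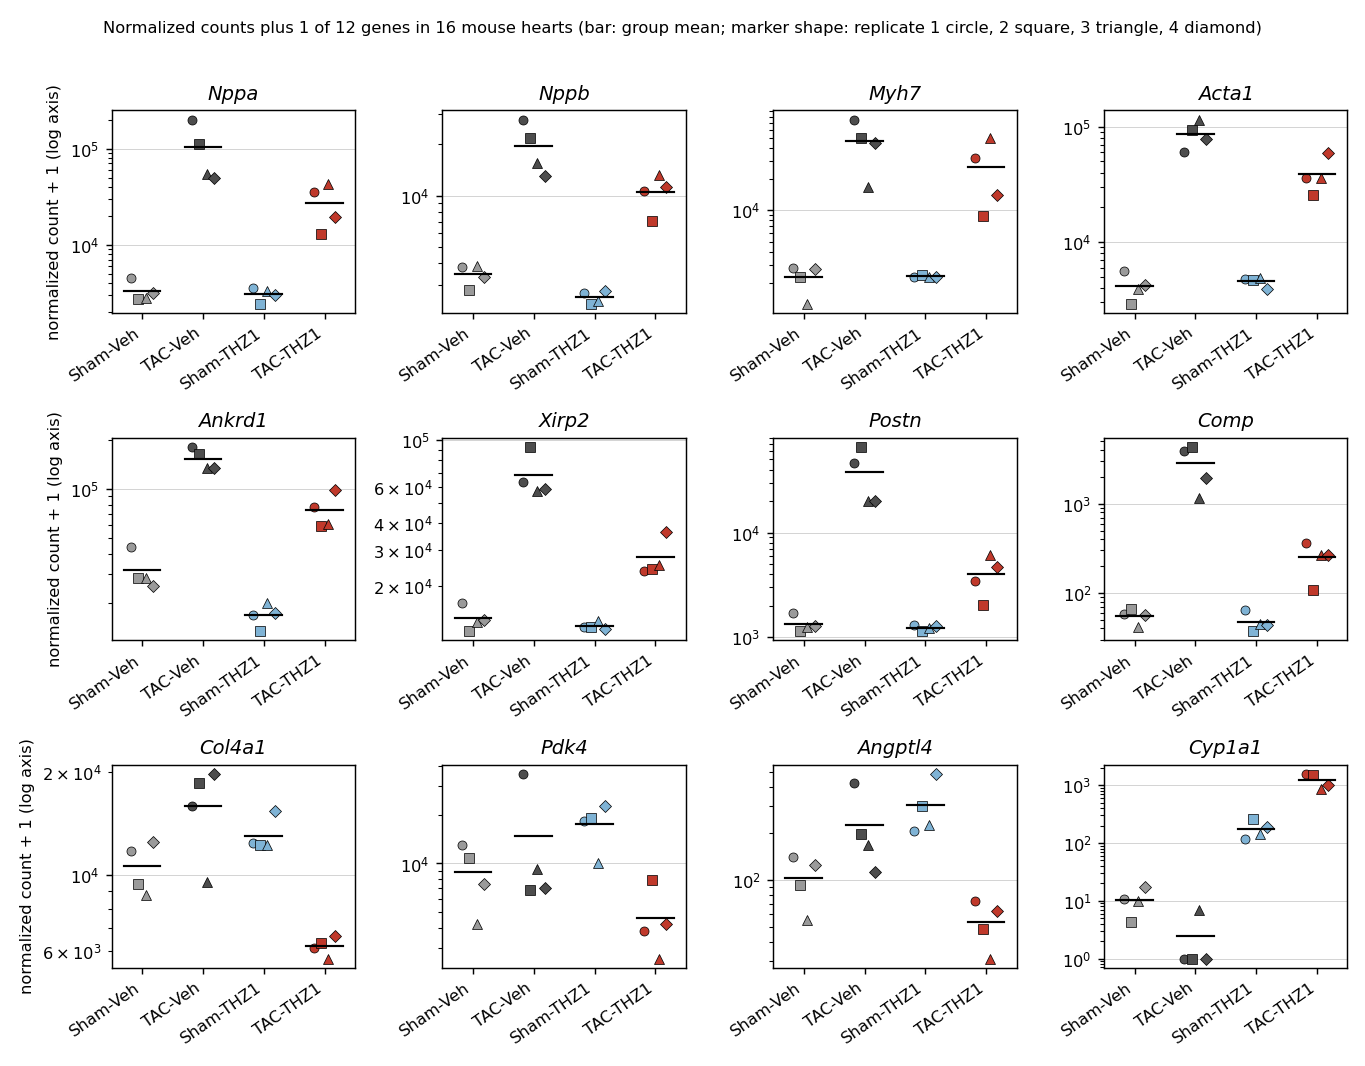
Normalized count + 1 (log axis) of 12 genes in the 16 hearts, 1 point per library with its shape giving the replicate, and a bar at the group mean. In the THZ1 arm Nppa, Nppb, Myh7, Acta1 and Ankrd1 are higher in all 4 TAC hearts than in all 4 sham hearts, Col4a1, Pdk4 and Angptl4 are lower, and Cyp1a1 is at most 16.1 normalized counts in the vehicle groups and between 850 and 1541 in TAC-THZ1.

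The same genes were read in the vehicle arm, with which the THZ1 arm shares no library. Of the 155 genes higher under THZ1, 106 (68.4%) were also among the 619 (4.64% of those tested) called higher with TAC under vehicle, of which they made up 17.1%. Of the 115 lower genes 69 (60.0%) were among the 449 (3.37%) called lower under vehicle, or 15.4% of them. The vehicle change was above 0 for 148 of the 155 and below 0 for 102 of the 115, and 4 genes were called in opposite directions in the 2 arms. Taken from the vehicle side, the 619 genes had a median log2 change of 1.50 under vehicle and 0.54 under THZ1, with 542 (87.6%) above 0 under THZ1 and 225 passing the test upward. The 449 genes had medians of -1.36 and -0.55, with 408 (90.9%) below 0 under THZ1 and 183 passing downward. Because the genes of each list were chosen on one arm's changes, that arm's median is not independent of the choice.

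The difference between the 2 TAC effects was tested as an interaction, (TAC-THZ1 minus Sham-THZ1) minus (TAC-Veh minus Sham-Veh), in the same limma fit. Over all tested genes 749 (5.62%) had a more negative change under THZ1 and 587 (4.4%) a more positive one, 10% together. Among the 155 higher genes 39 changed less under THZ1, 5 changed more and 111 did not pass. Among the 115 lower genes 12 had a more negative change, 8 a more positive change and 95 did not pass. A gene that did not pass is not thereby shown to have changed alike in both arms.

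Among the cardiomyocyte genes, Ankrd1 rose by 2.12 under THZ1 and 2.30 under vehicle (interaction -0.18, SE 0.26, limma adjusted p = 0.70), and Nppb by 2.03 and 2.46 (interaction -0.43, SE 0.29, adjusted p = 0.36). Nppa rose by 3.01 and 4.76 (interaction -1.75, SE 0.56) with an adjusted p of 0.056 in limma, just short of the threshold. Myh7 rose by 3.19 and 4.24 (interaction -1.05, SE 0.66, limma adjusted p = 0.32). The mean share of Myh7 in the TAC-Veh hearts was 14.2%. Acta1 rose less under THZ1 (3.04 against 4.38, interaction -1.34, limma adjusted p = 0.0195), as did Xirp2 (1.06 against 2.25, interaction -1.19, adjusted p = 0.00468) and Rcan1 (0.86 against 2.48, interaction -1.61, adjusted p = 0.00194). Interactions of the last 3 genes passed in all 16 fits that left out 1 library.

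**Figure D2:**
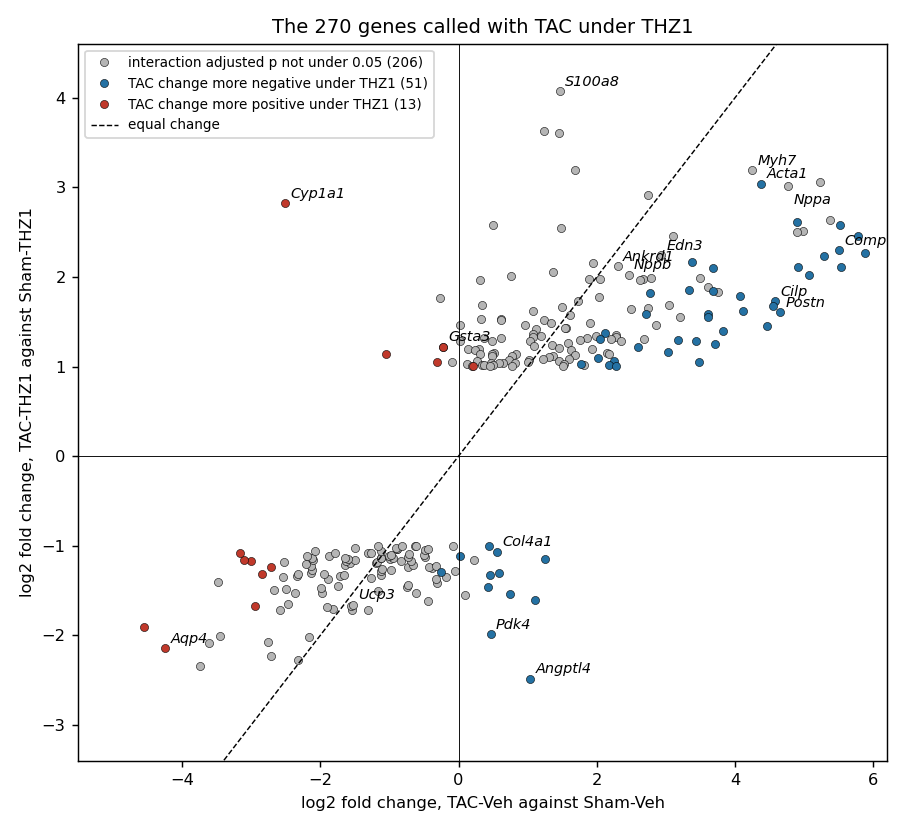
Log2 change with TAC under THZ1 (vertical) against log2 change with TAC under vehicle (horizontal) for the 270 genes called under THZ1, coloured by the interaction test. For 206 genes the interaction did not pass, 51 genes had a more negative change under THZ1 and 13 a more positive change.

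Some called genes were named for an interaction close to 0, and no test of equal change was made. Cpxm2, a carboxypeptidase-like secreted protein, had 988, 1015, 934 and 700 normalized counts in Sham-THZ1 and 3027, 2125, 2204 and 2838 in TAC-THZ1, a change of 1.48 under THZ1 and 1.34 under vehicle on the log2 scale. Ptprn, a protein of hormone-containing granules, rose by 1.51 and 1.24 and Gcnt1, a glycosyltransferase, by 1.13 and 0.83. Among the lower genes, Kdm6b, a demethylase of histone H3 lysine 27, had 856, 838, 873 and 750 against 378, 395, 403 and 332 (log2 -1.14 under THZ1 and -1.13 under vehicle). Slc25a22, a mitochondrial glutamate carrier, fell by 1.13 and 1.12, Dusp18 by 1.19 in both arms, and Prr12 by 1.06 and 1.12. These 7 genes were picked only from genes whose groups did not overlap under THZ1, so their separation follows from the choice. Other genes were named for a large rise under THZ1. Edn3, a vasoactive endothelin peptide, had 69.2, 112, 65.4 and 62.8 against 306, 286, 435 and 441 normalized counts and rose by 2.24 and 2.93. Aqp8, a water channel, rose by 1.96 and 2.63, and Itgb1bp3, a nicotinamide riboside kinase of muscle, by 2.51 and 4.99 with an interaction adjusted p of 0.097 in limma.

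Of 28 matrix glycoproteins and proteoglycans 13 rose, 2 fell and 13 did not pass, with a median of 0.50 on the log2 scale against 1.77 under vehicle. Of 19 collagens 1 rose, 10 fell and 8 did not pass, with a median of -0.48 against 0.75 under vehicle. The interaction was negative and passed for 22 of the 28 glycoproteins and for 15 of the 19 collagens. In bulk tissue, fewer cells of a type and less RNA per cell cannot be told apart.

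Postn (ENSMUSG00000027750, chr3:54165031-54194961, plus strand), periostin, the marker of activated fibroblasts, had 1306, 1147, 1226 and 1270 normalized counts with sham and 3455, 2029, 6054 and 4704 with TAC under THZ1 (log2 1.60, SE 0.34, limma adjusted p = 0.00449). All 4 TAC hearts were above all 4 sham hearts, with replicate 2 the lowest, and without replicates 1 and 3 the adjusted p was 0.061. Under vehicle Postn went from a mean of 1348 ± 256 to 38153 ± 22267 (SD, n = 4 each), a log2 change of 4.65, and the interaction was -3.04 (limma adjusted p = 0.00226). Thbs4, a thrombospondin of stressed muscle, had 115, 124, 110 and 117 against 632, 261, 899 and 611 (log2 2.23, with 5.29 under vehicle). Comp, a cartilage relative of the thrombospondins, had 63.2, 36.3, 44.1 and 42.5 against 364, 106, 267 and 263 (2.30, with 5.50 under vehicle). The TAC hearts of both genes were separate from sham, and replicate 2 was again the lowest of them.

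Cilp, a secreted matrix protein that binds TGF-beta, had 487, 382, 350 and 428 normalized counts with sham and 1610, 684, 1544 and 1998 with TAC (log2 1.73), and Ltbp2, a latent TGF-beta binding protein of the microfibril, had 120, 94.2, 97.5 and 101 against 447, 246, 581 and 490 (2.02). Mfap4, another microfibril protein, rose by 1.05 and Fmod, the collagen-binding proteoglycan fibromodulin, by 2.46. The small leucine-rich proteoglycans Lum, Dcn and Bgn rose by 0.85, 0.52 and 0.84. The change of Lum under vehicle was 1.05 (interaction -0.20, limma adjusted p = 0.48). Thbs2 and Fbn1, fibrillin, fell by 0.62 and 0.63, the latter with an adjusted p of 0.049 in limma that did not pass in most alternatives. Fn1, fibronectin, stood at -0.64 (adjusted p = 0.11), Eln, elastin, at -0.90 (0.067) and Sparc at -0.22 (0.39). Without any one of the 8 libraries 11 to 15 of the 28 rose, without TAC-THZ1 replicates 1 and 3 it was 7, and after removal of the GC and length trend 10 rose and none fell.

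The basement membrane collagens Col4a1 and Col4a2 changed in opposite directions in the 2 arms. Col4a1 (ENSMUSG00000031502, chr8:11198423-11312826, minus strand) had 12406, 12258, 12222 and 15353 normalized counts with sham and 6129, 6358, 5720 and 6639 with TAC under THZ1 (log2 -1.07, SE 0.18, limma adjusted p = 0.00118), while under vehicle it rose by 0.55 (interaction -1.62, adjusted p = 0.00225). Col4a2 (ENSMUSG00000031503, chr8:11312805-11449287, plus strand), whose annotated start overlaps that of Col4a1, had 10086, 10007, 10175 and 11845 against 4968, 5353, 5177 and 5395 (-1.01, with 0.43 under vehicle). In both genes all 4 TAC hearts lay well below all 4 sham hearts, and both interactions passed in all 16 fits that left out 1 library. Col1a1, the main chain of fibrillar type I collagen, had 1735, 1885, 1615 and 1877 against 893, 866, 1199 and 973 (-0.86, adjusted p = 0.0149 in limma) and rose by 1.11 under vehicle. Its fall did not pass once the GC and length trend was removed.

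Col5a3 fell by 1.25, Col15a1 by 0.81, Col5a1 by 0.72, Col18a1 by 0.69 and Col6a1 and Col6a2 by 0.46 and 0.48. Col1a2 stood at -0.13 and Col3a1 at -0.42 with overlapping groups, against rises of 1.36 and 1.59 under vehicle. Col8a1, a collagen induced in remodelling vessels and fibroblasts, was the one that rose, with 842, 645, 808 and 734 against 1104, 1077, 1413 and 1721 (0.79). Col6a6 was lower in both arms, with 196, 190, 184 and 158 against 64.4, 121, 76.5 and 71.3 (-1.16 under THZ1, -3.11 under vehicle, interaction 1.95, limma adjusted p = 0.0346), but its fall under THZ1 did not pass in 7 of the 8 leave-one-out fits. The count of falling collagens was 7 to 9 in the leave-one-out fits, 5 without TAC-THZ1 replicates 1 and 3, and 4 after removal of the GC and length trend, which moved it by more than 1.5 times in the last 2.

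Ctgf, the connective tissue growth factor, did not pass under THZ1. It had 1752, 1581, 1608 and 1703 normalized counts with sham and 2526, 2556, 2496 and 4159 with TAC (log2 0.79, SE 0.34, limma adjusted p = 0.102), although all 4 TAC hearts were above all sham hearts. It passed in 3 of 24 alternatives, the fit of the 8 THZ1 libraries alone and the fits with weights per library or per group. Under vehicle its mean went from 1828 ± 322 to 16950 ± 11095 (SD, n = 4 each), and the interaction was -2.18 (adjusted p = 0.0122). Of 23 TGF-beta and CCN genes 3 rose under THZ1 (Wisp2 by 1.86, Tgfb2, a ligand, by 0.61 and Bmp4 by 0.58), 2 fell (Tgfbr3, a co-receptor, and Ltbp1, both by 0.54) and the median was -0.05 against 0.74 under vehicle. Among 26 genes of matrix cross-linking and turnover 2 rose and 2 fell, with medians of -0.04 and 1.36. Over all tested genes 11.4% rose and 12.8% fell, so the counts of both lists were near or below these shares.

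**Figure D3:**
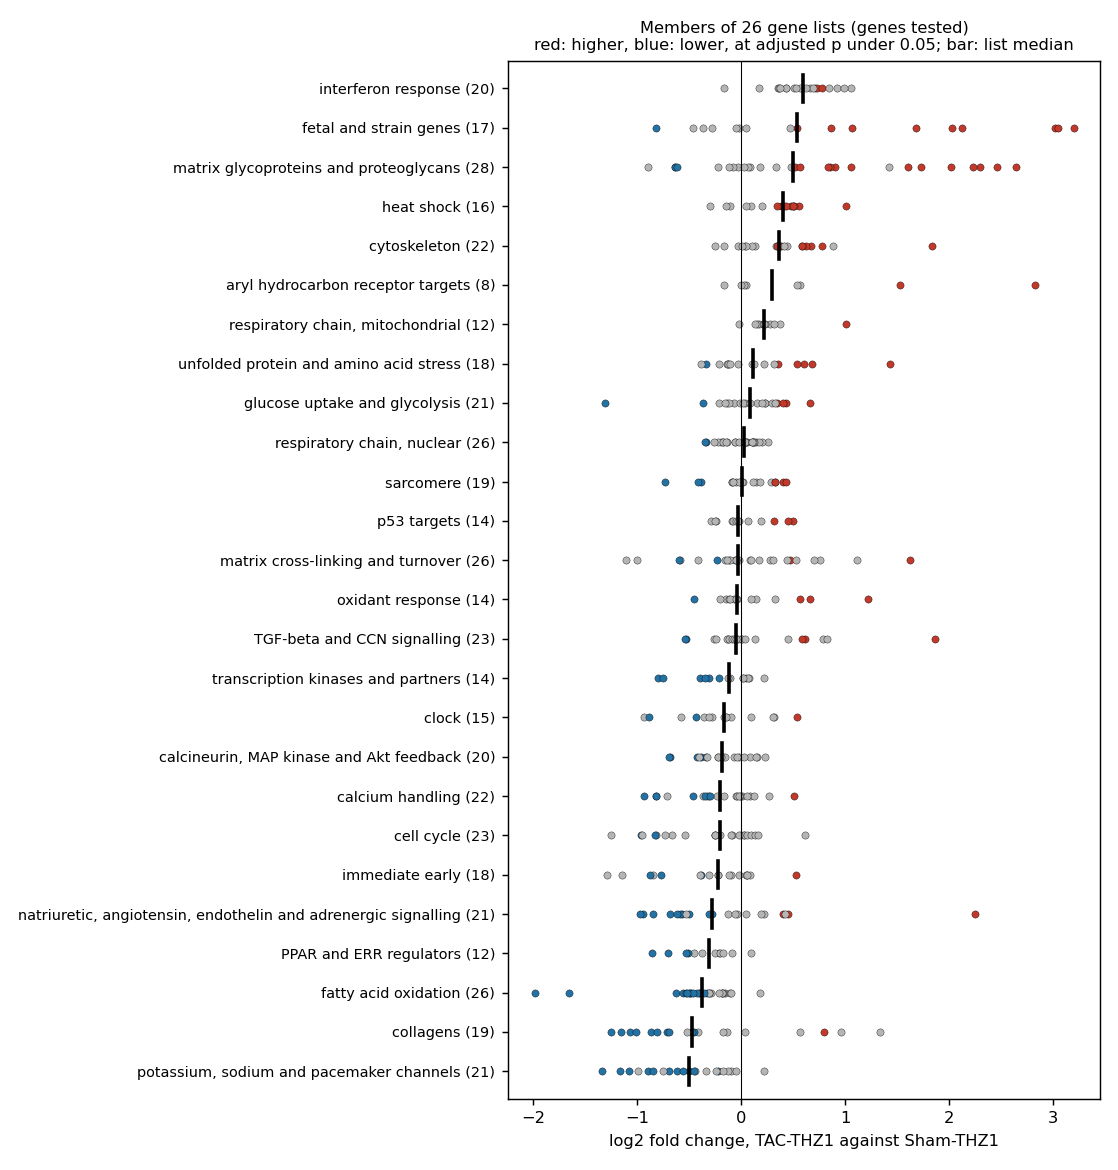
Log2 fold change of TAC-THZ1 against Sham-THZ1 for the tested members of 26 gene lists, 1 point per gene, with the list median as a bar, and red or blue where a gene rose or fell at an adjusted p under 0.05. The fetal and strain list has a median of 0.53 and the matrix glycoproteins one of 0.50, while the medians are -0.48 for the collagens, -0.38 for the fatty acid oxidation genes and -0.51 for the channels.

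Of 26 genes of fatty acid oxidation 16 fell and none rose, with a median of -0.38 on the log2 scale against -0.74 under vehicle. Hadha, the alpha subunit of the mitochondrial trifunctional protein, had 37787, 37647, 39494 and 38247 normalized counts with sham and 24506, 33323, 24332 and 27967 with TAC (log2 -0.49, limma adjusted p = 0.00585). Cpt1a and Cpt2, carnitine palmitoyltransferases, fell by 0.63 and 0.56, and Cpt1b, the muscle form, stood at -0.15 (adjusted p = 0.23). Replicate 2 was the TAC heart nearest to sham for Hadha, Cpt1a and Cpt2. The count of falling genes was 7 without TAC-THZ1 replicate 1 or replicate 3, 8 without replicate 4, 0 without replicates 1 and 3 and 20 after removal of the GC and length trend.

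Pdk4 (ENSMUSG00000019577, chr6:5433351-5446309, minus strand), the kinase that shuts pyruvate out of the citric acid cycle, had 18222, 19136, 10109 and 22735 normalized counts in Sham-THZ1 and 3815, 7900, 2576 and 4188 in TAC-THZ1 (log2 -1.99, SE 0.48, limma adjusted p = 0.00834). Under vehicle it had 13010, 10801, 4207 and 7409 with sham and 35683, 6821, 9245 and 7021 with TAC (0.46, adjusted p = 0.45), so the groups overlapped there. The interaction was -2.45 (adjusted p = 0.0325) and passed in 8 of the 16 fits that left out 1 library. Angptl4 (ENSMUSG00000002289, chr17:33910695-33918520, minus strand), an inhibitor of lipoprotein lipase that fatty acids induce, had 205, 300, 226 and 481 against 72.1, 47.1, 30.1 and 62.3 (-2.48, SE 0.39, limma adjusted p = 0.000876). It rose by 1.03 under vehicle, and the interaction of -3.52 (adjusted p = 0.00225) passed in all 16 fits.

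Ucp3, a mitochondrial carrier induced by fatty acids, had 1739, 2033, 1786 and 1815 normalized counts with sham and 523, 1072, 328 and 624 with TAC (log2 -1.66 under THZ1 and -1.53 under vehicle). Acot1, a cytosolic acyl-CoA thioesterase, had 214, 242, 199 and 281 against 56.8, 126, 53.7 and 61.4 (-1.72 and -2.58). In both, replicate 2 stood above the other TAC hearts. Phkg1, a phosphorylase kinase subunit, fell by 1.53. Pfkfb1, which makes the activator of phosphofructokinase, fell less under THZ1 than under vehicle (-1.31 against -2.85, interaction 1.54, limma adjusted p = 0.0313). Of 21 genes of glucose uptake and glycolysis 4 rose (Pfkp by 0.66, Gapdh by 0.43, Pgam2 by 0.40 and Tpi1 by 0.34), 2 fell (Pfkfb1 and Hk2) and 15 did not pass. Over all tested genes 11.4% rose and 12.8% fell. The number of glycolysis genes rising was 2 without TAC-THZ1 replicate 1 and after removal of the GC and length trend, 1 without replicates 1 and 3, and 3 to 6 with another library left out. Only 2 of 26 nuclear respiratory chain genes passed, both downward, and 4 of 12 PPAR and ERR regulators fell with none rising.

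Of 21 potassium, sodium and pacemaker channel genes 11 fell and none rose, with a median of -0.51 on the log2 scale against -1.25 under vehicle. Kcnj2, an inward rectifier, had 1304, 1554, 1436 and 1493 normalized counts with sham and 675, 852, 893 and 801 with TAC (log2 -0.85, limma adjusted p = 0.00177). Kcnd2, a transient outward channel, had 672, 638, 711 and 710 against 340, 485, 321 and 341 (-0.89, adjusted p = 0.00148), and its partner Kcnip2 fell by 0.51, less than the 1.39 under vehicle (interaction 0.88, adjusted p = 0.0177). Scn4a, a sodium channel, and Hcn4, the pacemaker channel, fell by 1.34 and 1.08 (Hcn4 did not pass in 6 of the 8 leave-one-out fits). The count was 5 without TAC-THZ1 replicate 1 or 3, 3 without both, and 5 after removal of the GC and length trend.

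Atp2a2, the calcium pump SERCA2, had 326427, 326085, 313513 and 293263 normalized counts in Sham-THZ1 and 165354, 209832, 158717 and 184082 in TAC-THZ1 (log2 -0.82, SE 0.18, limma adjusted p = 0.00469), with no overlap. The change under vehicle was -1.30 (interaction 0.48, adjusted p = 0.23). Of 22 calcium handling genes 7 fell and 1 rose (S100a1, a calcium sensor, by 0.50). Ryr2, the release channel, fell by 0.46, the T-type channels Cacna1g and Cacna1h by 0.82 and 0.94, and Pln, phospholamban, stood at -0.17 with overlapping groups. After removal of the GC and length trend 3 of the 22 fell. Of 21 genes of natriuretic, angiotensin, endothelin and adrenergic signalling 3 rose (Edn3 and Npr3 among them) and 10 fell, among them Corin, the protease that activates the atrial peptide (by 0.69), Furin (0.57), Adra1b (0.85), Adrb1 (0.59) and Apln (0.98). The falling count was 6 to 9 with 1 library left out. The rising count was near the 11.4% of all tested genes that rose.

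Of 16 heat shock genes 9 rose and none fell, beside 11.4% and 12.8% of all tested genes. The median was 0.40 on the log2 scale and 0.41 under vehicle, but 1 gene was called higher under THZ1 and 5 under vehicle. The interaction was negative and passed for 3 of the 16. Hspb1 had 1880, 1759, 1667 and 1699 normalized counts with sham and 2536, 2528, 2479 and 2710 with TAC (log2 0.55, SE 0.08, limma adjusted p = 0.000518), and Cryab, a small heat shock protein of lens and muscle, had 32731, 32608, 31881 and 29137 against 43084, 43192, 37622 and 46175 (0.43). Neither overlapped. Hspa1l was the one called at 1.01, and Hspb6, Hspb7 and Hspb8 rose by 0.48, 0.51 and 0.39. The inducible Hspa1a and Hspa1b stood at 0.50 and 0.20 with overlapping groups. The count was 9 in each of the 8 leave-one-out fits, 8 without TAC-THZ1 replicates 1 and 3, and 6 after removal of the GC and length trend. Of 22 cytoskeleton genes 9 rose and none fell, including Des, desmin (0.37), Tmsb4x (0.58), Synpo2l (0.77) and the tubulins Tuba1b (0.67) and Tuba4a (0.62). The median of this list was 0.36 against 0.74 under vehicle. Its interactions passed for 6 genes with a negative sign and for 1 with a positive sign. For the tubulins replicate 3 was the highest TAC heart, and the list's count was 5 without TAC-THZ1 replicate 1 and 3 without replicates 1 and 3.

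Cyp1a1 (ENSMUSG00000032315, chr9:57545420-57551629, plus strand), the enzyme that marks activity of the aryl hydrocarbon receptor, had the most positive interaction of all the genes named. It had 115, 256, 143 and 187 normalized counts in Sham-THZ1 and 1541, 1528, 850 and 1006 in TAC-THZ1 (log2 2.82, SE 0.54, limma adjusted p = 0.00255). In Sham-Veh it had 9.55, 3.21, 8.84 and 16.1, and in TAC-Veh 0 in 3 hearts and 5.94 in the fourth, so each THZ1 heart was above each vehicle heart whatever the operation. The interaction was 5.34 (adjusted p = 0.00206), a value that depends on the pseudocount because of the zeros. Of 8 tested genes of this receptor pathway, Aldh3a1 was the other that rose (1.53), but it did not pass without Sham-THZ1 replicate 3 or 4 or TAC-THZ1 replicate 1, which left 1 riser. Ahrr, the repressor, had 95.4, 110, 76.1 and 70.9 against 156, 109, 150 and 108 (0.57, adjusted p = 0.16). Cyp1b1, Tiparp and Nqo1 did not pass. Gsta3, a glutathione transferase, had 215, 201, 172 and 151 against 515, 435, 483 and 311 (1.22, with -0.22 under vehicle, interaction 1.44, limma adjusted p = 0.0267), with no overlap under THZ1. Nrn1, neuritin, rose by 1.01 under THZ1 and stood at 0.21 under vehicle (interaction 0.80, adjusted p = 0.0283).

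Several other genes fell strongly in TAC-THZ1. Aqp4, a water channel, had 142, 142, 178 and 219 normalized counts with sham and 21.8, 102, 30.1 and 27.7 with TAC (log2 -2.14, and -4.25 under vehicle). Cenpf, a kinetochore protein, had 565, 580, 767 and 693 against 158, 360, 220 and 133 (-1.67, and -2.95 under vehicle, interaction 1.27, limma adjusted p = 0.0367). Replicate 2 was the highest TAC heart for both. Slc6a17, an amino acid transporter, Aldh1l2, the mitochondrial enzyme of folate metabolism, Celsr2, a cadherin, and Rtn4r, a Nogo receptor, fell by 1.52, 1.47, 1.45 and 1.36. Rtn4r did not pass without Sham-THZ1 replicate 1 or TAC-THZ1 replicate 1.

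Among 14 transcription kinases and their partners, the class of genes that THZ1 addresses at the protein level, 6 fell and none rose. Cdk7 had 545, 572, 546 and 621 normalized counts with sham and 545, 620, 642 and 595 with TAC (log2 0.07, adjusted p = 0.43 in limma), with overlapping groups. Polr2a, the largest subunit of RNA polymerase II, had 1403, 1455, 1418 and 1511 against 881, 901, 854 and 789 (-0.76), with no overlap. Its change under vehicle was -0.64. Cdk12, Cdk13, Ccnk and Ccnt1 fell by 0.39, 0.21, 0.31 and 0.34. Ccnk did not pass in 7 of the 8 leave-one-out fits, Cdk13 not without TAC-THZ1 replicate 1 or 4, and Cdk13 and Ccnt1 not after removal of the GC and length trend. The list's count was 4 to 6 in the leave-one-out fits and 3 without TAC-THZ1 replicates 1 and 3.

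Genes that fell were richer in G and C. The median GC content of exons was 50.4% over the tested genes, 50.8% for the 155 higher genes, 53.5% for the 115 lower genes and 57.6% for the 46 lower genes that were not called lower under vehicle. In each library, log2 expression relative to the gene's mean was regressed on GC content and length, over genes averaging at least 50 normalized counts. The slope on GC content was 0.0583 to 0.0927 per 10 percentage points in the Sham-THZ1 libraries and -0.0356 to -0.0134 in the TAC-THZ1 libraries (exact permutation test, two-sided p = 0.0286, n = 4 and 4). In the vehicle libraries the groups overlapped (p = 0.40 by the same exact test). The mean slope was 0.075 in Sham-THZ1, -0.026 in TAC-THZ1, -0.012 in Sham-Veh and -0.037 in TAC-Veh. Sham-THZ1 was thus the group apart, with every slope above those of all other libraries, and TAC-THZ1 lay within the vehicle range. With the GC and length trend removed, a choice made after seeing the data, 112 genes were called higher and 81 lower, of which 97 and 69 were also called without it. The part of this slope in the other results was not tested further.

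**Figure D4:**
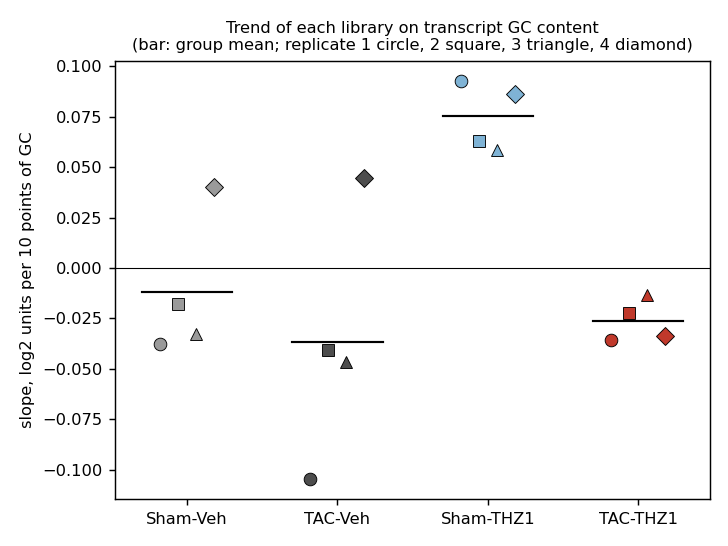
Slope of log2 expression on transcript GC content, fitted together with transcript length (log2 units per 10 percentage points), 1 point per library in the 4 groups. All 4 Sham-THZ1 libraries have a positive slope (0.0583 to 0.0927) and all 4 TAC-THZ1 libraries a negative one. The vehicle libraries range from -0.1045 to 0.0445.

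Markers of other cells moved with the groups. Of 12 endothelial markers 6 fell and 2 rose, and their summed normalized count was 34296 to 36733 in Sham-THZ1 and 26318 to 29749 in TAC-THZ1. Cldn5, a tight junction protein of endothelium, had 453, 421, 398 and 573 against 191, 197, 198 and 262 (log2 -1.12, limma adjusted p = 0.00146) and stood at 0.03 under vehicle (interaction -1.14, adjusted p = 0.0169). Cdh5, the endothelial cadherin, fell by 0.84, and Emcn rose by 0.43. Of 10 pericyte and smooth muscle markers 7 fell and none rose, and the sum was 37105 to 37677 against 26575 to 28069. Myh11, smooth muscle myosin, had 1065, 1009, 1040 and 915 against 479, 382, 602 and 393 (-1.14). The sums of both classes did not overlap, and neither did the values of 33.4% of all tested genes. The endothelial sums of Sham-THZ1 also lay above those of Sham-Veh (30902 to 33512). With 1 library left out, 4 to 6 endothelial and 5 to 7 pericyte and smooth muscle markers fell. The basement membrane collagens described above fell as well, and a link was not tested. Fibroblast marker sums were 58918 to 62890 with sham. With TAC the sum was 87128 in replicate 1 and 62698 to 68727 in the other hearts, so the groups overlapped. Of the 10 markers 4 rose and 1, Col1a1, fell, beside 11.4% and 12.8% of all tested genes.

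Myeloid markers were higher in some TAC-THZ1 hearts. Of 13 macrophage markers 6 rose, among them C1qa, C1qb and C1qc, the complement subunits of resident macrophages, by 0.74, 0.83 and 0.72. Their summed count was 9920 to 11987 with sham, and 22752, 11334, 18326 and 13243 with TAC, so replicate 2 lay within the sham range. The neutrophil calprotectin subunits S100a8 and S100a9 had 15.5, 125, 24 and 12.2, and 38.2, 235, 29.4 and 30.4 normalized counts with sham. With TAC they had 2840, 321, 1048 and 56.4, and 3518, 488, 1606 and 68.3, so that both overlapped in spite of passing the test (log2 4.07 and 3.60). Of the 5 tested neutrophil markers 4 rose and the 5 others, Ly6g, Mmp8, Ngp, Camp and Ltf, were below the filter. Without TAC-THZ1 replicates 1 and 3 none of the 13 macrophage or 5 neutrophil markers passed. The 8 erythroid markers did not pass (median 0.79), and their sum was highest in TAC-THZ1 replicates 1 and 3 as well, at 31801 and 18693 against 5738 to 10314 with sham. The part of myeloid cells and blood in the other results was not tested.

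**Figure D5:**
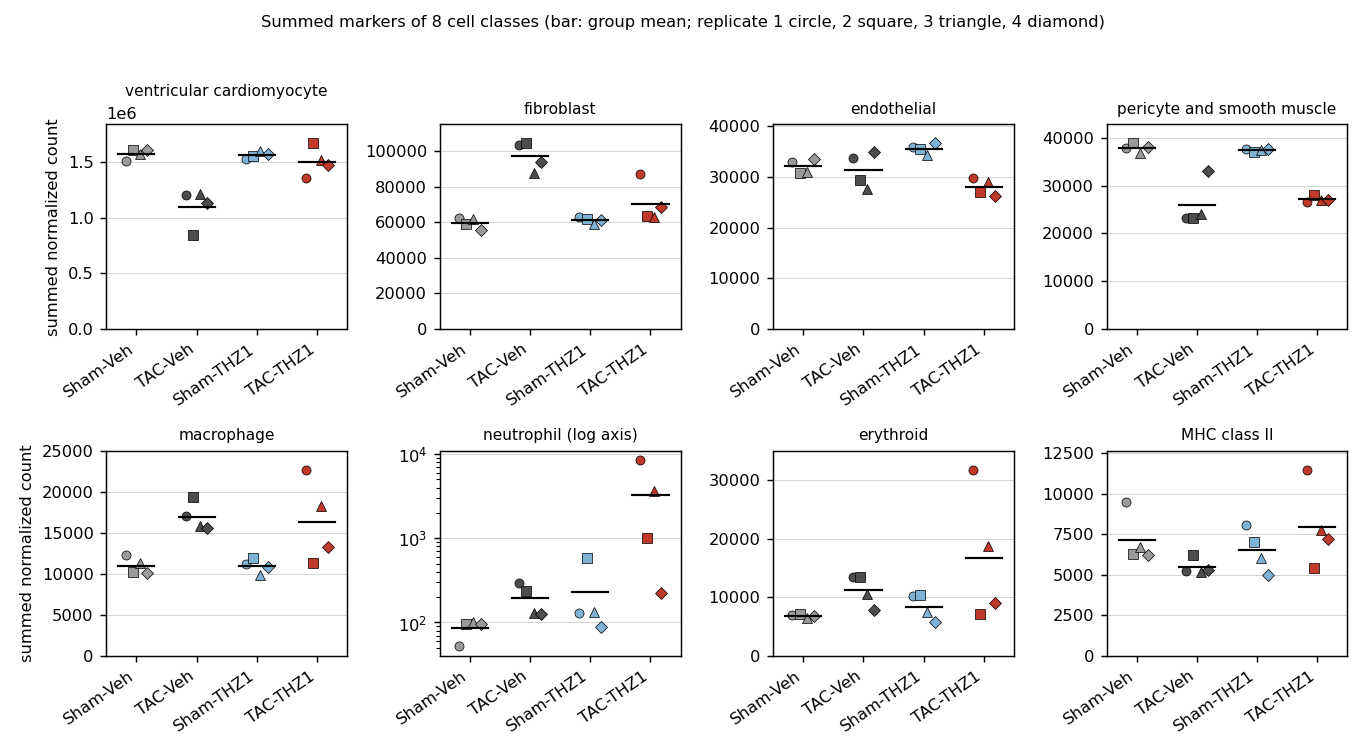
Summed normalized counts of 8 cell type marker lists in each library, with a log axis for the neutrophil markers and axes from 0 for the others. Endothelial and pericyte and smooth muscle sums are lower in all 4 TAC-THZ1 hearts than in the Sham-THZ1 hearts, and neutrophil sums range from 224 to 8387 in TAC-THZ1.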

How the data were processed

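RNA from ventricle pieces of 16 mice was sequenced from stranded mRNA libraries. The authors aligned reads to mm9 with TopHat 2.1.1, counted them per GENCODE gene with htseq-count in reverse-stranded mode and divided each library by a DESeq2 size factor, so the deposited signal is a normalized count. Reads were recovered by undoing these factors, and 100% of values came out whole within 0.01. Depth was 21.4 M to 32.7 M reads in the 8 THZ1 libraries.

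Groups and replicate numbers came from the sample titles. limma 3.58.1 (R 4.3.3) fitted log2(normalized count + 1) with 1 mean for each of the 4 groups over all 16 libraries, with a mean-variance trend and Benjamini-Hochberg adjustment over 13331 genes. The script was tested on simulated data. Named genes were the 12 with the largest change in each direction (mean of at least 100, no overlap). The 6 with the smallest interaction p in each direction needed the same mean. The 4 with the smallest interaction in each direction needed that mean and no overlap. A panel of 12 markers and members of the lists described were also named. The genes of the panel and the 40 lists were chosen with earlier results of these data known, and genes named outside them were chosen after their values were seen. Exon length, and the GC content and length of the longest protein-coding transcript, came from GENCODE on NCBIM37. Promoter windows came from RefSeq on GRCm38.p6, matched by symbol. The limma p-values rest on 1 moderated estimate of spread per gene, pooled over the mice of all 4 groups. The exact permutation tests use only the 4 and 4 values compared. Alternatives were other pseudocounts, filters, scalings, variance models and thresholds, a replicate block, edgeR 4.0.16 and DESeq2 1.42.0 on recovered reads, and leaving out each library. Omission of TAC-THZ1 replicates 1 and 3 and removal of the GC and length trend were added after seeing the data. Symbols shared by more than 1 gene ID (134) and the near-identical globin genes are uncertain. A few genes that these rules name are not reported here. Files held no unused sample columns.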

Additional observations from a re-analysis of the deposited data

Results flagged for a closer look

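Several single libraries stood apart from the others of their group by Dixon's test at 95%, which chance alone does in about 1 in 20 groups. The test was run on each gene of the naming rules and on cell type marker sums above a floor, in both THZ1 groups. No correction was made for the number of tests, so chance alone would set some libraries apart. In Sham-THZ1, replicate 2 was high for Myh7 (2379 normalized counts, the others 2278 to 2291), for Edn3 (112, the others 62.8 to 69.2) and for the summed neutrophil markers (579, the others 88.1 to 134). Replicate 4 of Sham-THZ1 was high for Col4a1 (15353, the others 12222 to 12406) and Col4a2 (11845, the others 10007 to 10175), and replicate 3 was low for the summed skeletal muscle markers (41.4, the others at 57.0 or more). In TAC-THZ1, replicate 2 was high for Aqp4 (102, the others 21.8 to 30.1) and Acot1 (126, the others 53.7 to 61.4), genes that fell with TAC. Replicate 4 of TAC-THZ1 was high for Xirp2 (36582, the others 23787 to 25386) and Ctgf (4159, the others 2496 to 2556). In none of these genes did the odd library bring the 2 THZ1 groups into overlap. Genes named for the size of their change had been required not to overlap.

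The TAC change differed between the THZ1 and vehicle arms for 64 of the 270 called genes at an interaction adjusted p under 0.05 in limma. Among examples picked by the size of their change or interaction or as markers, the change was more negative under THZ1 for Angptl4 (-3.52 on the log2 scale), Comp (-3.20), Thbs4 (-3.06), Ltbp2 (-3.06), Postn (-3.04), Cilp (-2.85), Pdk4 (-2.45), Mfap4 (-2.42), Ctgf (-2.18), Col4a1 (-1.62), Rcan1 (-1.61), Col4a2 (-1.44), Acta1 (-1.34) and Xirp2 (-1.19). Ctgf and Rcan1 were markers outside the 270 called genes. Among the same kind of examples, the change was more positive for Cyp1a1 (5.34), Aqp4 (2.104), Col6a6 (1.95), Pfkfb1 (1.54), Gsta3 (1.44), Cenpf (1.27) and Nrn1 (0.80). Of these, the interactions of Gsta3, Nrn1, Pdk4, Pfkfb1, Cenpf, Col6a6 and Aqp4 passed in 12, 10, 8, 8, 7, 7 and 2 of the 16 fits that left out 1 library.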

How the results depend on the processing

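None of the 218 genes followed changed direction under any alternative. They were genes of the naming rules or list members with an adjusted p under 0.05. The alternatives refitted the same libraries, so a reversal was unlikely from the outset. The replicate numbers did not pair the samples (correlations of same-numbered deviations 0.096, -0.19, -0.046 and 0.124), and with the replicate as a block 151 genes were higher, 111 lower, 64 differed between arms and 168 were shared with vehicle, against 155, 115, 64 and 175. A mean of at least 50 normalized counts left 85 higher, 65 lower and 103 shared genes. An adjusted p under 0.01 left 86, 70, 22 and 111, and an adjusted p under 0.05 with no fold change gave 1514, 1706, 400 and 2077. DESeq2 gave 102 genes that differed between arms. Without TAC-THZ1 replicates 1 and 3 the counts were 65, 58, 36 and 80. When single libraries were omitted, the higher genes ranged from 101 (TAC-THZ1 replicate 1 omitted) to 248 (TAC-THZ1 replicate 2 omitted), the lower genes from 91 to 154, those that differed between arms from 37 (Sham-THZ1 replicate 4) to 95 (TAC-Veh replicate 3), with 40 on omission of Sham-Veh replicate 2, and the shared genes from 132 to 239. The other alternatives kept these counts within 1.5 times. The cause of these differences was not tested, apart from the fewer genes or samples that the filters and omissions leave. Precision was limited by 4 hearts per group and by the spread among TAC-THZ1 hearts (median SD of log2 values 0.141, against 0.0916 in Sham-THZ1). The pooled estimate of spread also took in Sham-Veh (0.098) and TAC-Veh, the most variable group (0.218).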

Other observations

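Of 18 tested genes of unfolded protein and amino acid stress 5 rose, 1 fell and 12 did not pass, with a median of 0.11 on the log2 scale. Over all tested genes 11.4% rose and 12.8% fell. Mthfd2, a mitochondrial folate enzyme, had 48.9, 51.0, 42.7 and 36.5 normalized counts in Sham-THZ1 and 164, 101, 95.2 and 139 in TAC-THZ1 (log2 1.43, limma adjusted p = 0.000594, and 1.55 under vehicle). Atf4, the transcription factor of this response, rose by 0.35, Ddit3 by 0.60, Asns, asparagine synthetase, by 0.68 and Psat1, a serine synthesis enzyme, by 0.53, while Hspa5, the endoplasmic reticulum chaperone BiP, fell by 0.34. The 5 risers did not overlap between the groups, but they had been picked by passing the test. Of all tested genes 33.4% did not overlap. The number rising was 3 without TAC-THZ1 replicate 3, 2 without replicates 1 and 3, and 2 after removal of the GC and length trend, and Asns did not pass in 9 of 24 alternatives.

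Of 23 cell cycle genes 2 fell, Mki67 and Plk1, and 21 did not pass, a smaller share than the 12.8% of all tested genes that fell. With 1 library left out the number falling was 0 to 7. Mki67, a marker of cycling cells, had 112, 88.2, 124 and 214 normalized counts with sham and 42.6, 59.8, 75.7 and 91.0 with TAC (log2 -0.96, limma adjusted p = 0.0162, interaction -1.59, adjusted p = 0.0163), with 1 TAC heart above the lowest sham heart. Called genes outside the list, picked after their values were seen, were Prc1 (-1.30 under THZ1 and 0.59 under vehicle), Nek2 (-1.54 and 0.75) and Hmmr (-1.15 and 1.26), mitotic genes at low counts whose interactions passed.

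The interferon list had 19 of 20 tested genes above 0 (median 0.59), and 2 passed, Ifit3 and Psmb8, near the 11.4% of all tested genes that rose. The number passing was 13 without TAC-THZ1 replicate 2 and 0 without replicate 1 or 3. Gbp2, an interferon-induced GTPase, had 1966 and 2693 normalized counts in TAC-THZ1 replicates 1 and 3, the hearts highest in myeloid markers, and 564 and 546 in replicates 2 and 4, against 528 to 673 with sham. Among immediate early genes, Nr4a3, an orphan nuclear receptor, had 253, 258, 223 and 229 with sham and 193, 111, 127 and 105 with TAC (log2 -0.88) but rose by 1.55 under vehicle (interaction -2.43, limma adjusted p = 0.00176). In the clock list Nr1d1, the repressor REV-ERB alpha, fell by 0.89 and Clock by 0.44, while Per2 rose by 0.54, and the other 12 of 15 genes did not pass. Per2 did not pass without Sham-THZ1 replicate 2 or 4 or TAC-THZ1 replicate 4. The clock counts were near or below the 11.4% and 12.8% of all tested genes that rose and fell. Mef2d, a cardiac transcription factor, fell by 0.69 under THZ1 and 0.75 under vehicle.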
